A study of Elaeis guineensis with 9 samples.

Results

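The transcripts described here are oil palm leaf mRNAs whose level followed the order of the yield classes in every population sampled. They were selected on TPM (transcripts per 1000000, which divides out transcript length and sets every library to an equal total) in 9 leaf libraries. A row of the deposited table was a member if its accession marks a predicted mRNA (XM_), its mean was at least 5 and under 1000 TPM, and its TPM ran strictly low < medium < high yield in each of 3 populations, or strictly low > medium > high in each. Of 51490 transcript rows, 43433 were XM_ rows, 15594 of these lay within the limits on the mean, and 139 were members. Upward members, with more transcript at higher yield, numbered 86, and downward members 53. Because TPM order across the yield classes chose them, their yield differences are a description and carry no test.

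All palms were Elaeis guineensis of the Tenera cultivar, the thin-shelled fruit form grown for oil, aged 7 years and grown in the same field. Per the labels, palms of high, medium and low oil yield were picked within each population after several years of yield records, and RNA came from leaves at frond 17, the leaf that oil palm agronomists sample as a standard. The high-yield class held 1 library each of Deli x LaMe, Deli x Yangambi and Deli x SP540, and so did the medium-yield and the low-yield class, so that each combination of class and population was seen in a single library. How many palms went into a library is not in the labels, so spread between libraries may be technical in part.

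As background, Deli is the thick-shelled maternal stock of most commercial oil palm, and LaMe, Yangambi and SP540 name pollen-parent populations crossed to it. Leaves feed the bunches with sugars, while the oil itself is made in the fruit flesh. Many plant genes give several transcripts that differ in their exons or ends, and each row of the table is 1 such transcript model. The leaf label fitted the markers at hand: CAT2, a leaf catalase that breaks down hydrogen peroxide, lay between 3458 and 7189 TPM. The floral regulators AG2, AGL2-2, AGL2-3, AGL2-5, GLO1, GLO2 and SQUA1 stayed under 1 TPM, and DEF1 reached 6.23 TPM. None of these was a member.

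By accession, 101 of the 139 members (72.7%) could be paired with 99 genes of the RefSeq gene table of assembly EG11, against 77.1% of all rows within the limits. All 99 carry only a LOC number, with no name, synonym or product description, so no function can be stated for any member. The members held low and high rows in shares near those of all rows within the limits, though none lay above 452 TPM. Their share with a mean of 5 to 10 TPM was 24.5%, against 27.9%, and their share with 100 TPM or more was 8.63%, against 8.25%. The median of the means was 19.9 TPM in upward and 12.5 TPM in downward members, against 17.5 TPM in all rows within the limits.

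**Figure D1:**
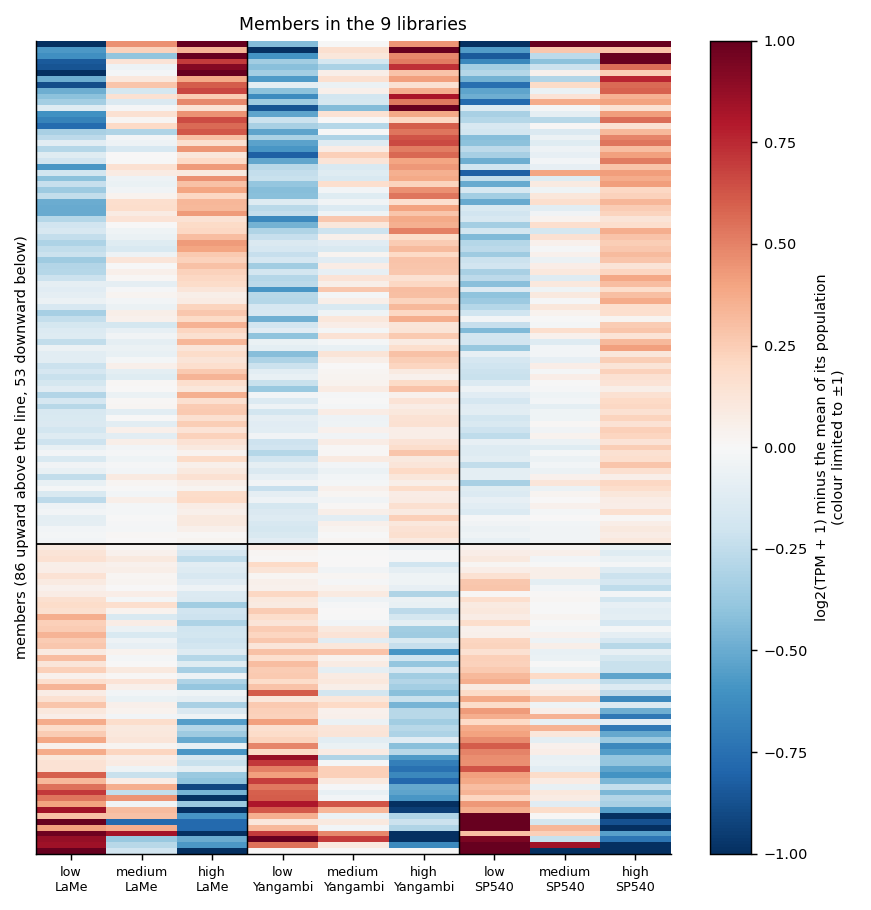
Each line is a member and each column a library, coloured by log2(TPM + 1) minus the member's mean in that population, with the 86 upward members above the 53 downward ones. Colour strength differs widely between members, and most members differ by well under 1 on the log2 scale.

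The number of members was compared with the number found when the yield labels are rearranged within populations. There are 6 possible orders in each of the 3 populations, and across all combinations of them a mean of 71.8 rows (range 21 to 236) ran in the required order. The labels as given yielded 86 upward rows, 1.2 times that mean, and 54 arrangements gave as many or more (exact permutation test, one-sided, p = 0.250). They yielded 53 downward rows, 0.738 times the mean, and 150 arrangements gave as many or more (exact permutation test, one-sided, p = 0.694). Both directions together held 139 rows against a mean of 144 over the distinct arrangements (exact permutation test, one-sided, p = 0.417). Members made up 0.551% of the rows within the limits upward and 0.34% downward. Neither direction passed the test with all 9 libraries. Without the low-yield Yangambi library, upward rows numbered 414, 1.92 times their mean (exact permutation test, one-sided, p = 0.0417), and downward rows stood at 1.5 times theirs (p = 0.111). Among the alternatives tried for the upward count, only this 1 fell under 0.05, with no allowance for the number tried. Of the others, 16 stayed above their mean and 4 fell below it. With the library scaling described below, upward rows were 1.01 times their mean. Without the low-yield or the high-yield LaMe library, upward rows came to 0.983 and 0.914 times their mean.

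**Figure D2:**
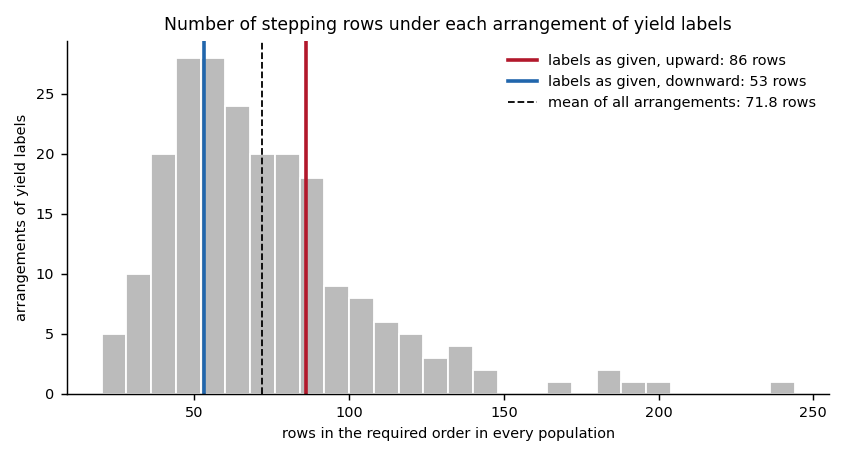
The x axis gives the number of rows whose TPM follows the arranged order in all 3 populations, and the bars count the arrangements of yield labels within populations that gave that number. The 86 upward and 53 downward rows (coloured lines) lie on either side of the mean of 71.8 (dashed line), and the fullest arrangement reaches 236.

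Other orders of the yield classes were shared by the populations as well. Rows with low < high < medium in all 3 populations numbered 60, those with high < low < medium 65, those with medium < low < high 48 and those with medium < high < low 21. Upward stepping was thus the most frequent of the 6 shared orders on TPM as deposited. After the library scaling described below, downward rows (77) outnumbered upward rows (72). Taken over all 6 orders, 333 rows had the same order in every population. This was the lowest count among the 36 ways of matching the classes between populations, whose mean was 431 and whose highest count was 573 (exact permutation test, one-sided for an excess, p = 1).

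A further comparison chose rows by their order in a pair of populations and looked at the third, whose order the choice had not used. The limits on the mean still took in all 9 libraries. Of 641 rows that stepped in Yangambi and SP540, 139 (21.7%) stepped the same way in LaMe, against a mean of 16.7% over the 6 label orders (exact permutation test, one-sided, p = 0.167, the smallest possible). Of 1298 rows that stepped in LaMe and SP540, 10.7% did so in Yangambi, the lowest of the 6 label orders (exact permutation test, one-sided, p = 1). Of 886 rows that stepped in LaMe and Yangambi, 15.7% did so in SP540 (exact permutation test, one-sided, p = 0.667). The share lay above the mean of the label orders in LaMe and below it in Yangambi and SP540.

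Most members differed by small amounts. The mean TPM of the high-yield libraries was a median of 1.42 times that of the low-yield libraries in upward members (range 1.11 to 4.95), and 0.669 times in downward members (highest 0.903). On the log2(TPM + 1) scale, which understates differences of low rows, the mean difference of high minus low yield had a median of 0.48 in upward and -0.53 in downward members. The median absolute difference over all rows within the limits was 0.16. In the 2481 rows higher at high than at low yield in all 3 populations it was 0.30. In the 1447 rows lower in all 3 it was 0.32. A difference of at least 1 was found in 9 upward members, and one of -1 or below in 14 downward members. For 82 of the 139 (59.0%), at least 1 of the 6 steps between neighbouring classes was under 0.05 on the log2 scale. With every step required to reach 10% of the lower value, 11 upward and 9 downward members were left, and with 25% there were 1 and 2.

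The difference was spread over the populations. High minus low yield had a median of 0.42 in LaMe, 0.46 in Yangambi and 0.48 in SP540 in upward members, and of -0.47, -0.51 and -0.53 in downward members, on the log2(TPM + 1) scale. The largest of the 3 population differences was in Yangambi for 33, in LaMe for 27 and in SP540 for 26 of the upward members, and in LaMe and SP540 for 18 each and in Yangambi for 17 of the downward members. The step from medium to high was the larger one in 44 of 86 upward members and in 40 of 53 downward members. In downward members its median was -0.34, against -0.19 for the step from low to medium. The medium-yield SP540 library had the highest median ratio to the mean library, 0.15 on the log2 scale. The part of this in the step sizes was not tested.

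Every high-yield library lay above every low-yield library in 55 upward members (64.0%), against 5.26% of all rows within the limits. In 31 downward members (58.5%) every high-yield library lay below every low-yield one, against 2.69%. Both follow from the rule and support nothing further. All 3 classes were apart from each other in 10 upward and 4 downward members, 0.0641% and 0.0257% of the rows within the limits. Every row with its classes apart in yield order is a member by the rule, so these shares hold the same rows.

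A test of high against low yield over the whole table is given as background. Limma on log2(TPM + 1), with population in the fit and Benjamini-Hochberg adjustment over 30576 rows of at least 1 TPM in at least 3 libraries, called 0 rows (0%), with 1424 at an unadjusted p under 0.05. All 139 members were among the rows fitted. Their own p-values are not read, because the rule chose them by the same yield order.

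Among the upward members, LOC105038131 (XM_010913838.3) had the widest smallest step, with every step at least 0.31 on the log2 scale. Its TPM in low, medium and high yield was 3.60, 4.71 and 9.28 in LaMe, 4.41, 6.47 and 8.26 in Yangambi, and 4.08, 6.01 and 10.1 in SP540. The 3 classes did not overlap. The high-yield libraries averaged 9.20 ± 0.900 TPM and the low-yield libraries 4.03 ± 0.404 TPM (SD, n = 3 each), a log2 difference of 1.02 ± 0.21 (SD over the 3 populations). XM_019850295.2, which was paired with no gene, showed a similar difference at 10.9 ± 1.31 TPM in the high-yield class and 4.84 ± 0.827 TPM in the low-yield class. High-yield and low-yield libraries did not overlap here either, although the medium-yield SP540 library, at 5.18 TPM, lay below the low-yield LaMe library at 5.79 TPM.

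The upward member with the largest yield difference, XM_010943668.3, rested on a pair of libraries near 0. Its low-yield libraries held 3.77e-07 TPM in LaMe, 8.65 TPM in Yangambi and 2.95e-06 TPM in SP540. Its medium-yield libraries held 4.99, 12.0 and 11.01 TPM and its high-yield libraries 12.9, 16.7 and 13.2 TPM in the same order of populations. Only in Yangambi was the low-yield level clearly measured, and there high over low yield came to less than in the other populations.

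LOC105033645 (XM_010908529.3) combined a high level with a wide difference. In low, medium and high yield it stood at 121, 241 and 356 TPM in LaMe, at 131, 148 and 241 TPM in Yangambi, and at 105, 123 and 342 TPM in SP540. The high-yield libraries averaged 313 ± 63.1 TPM and the low-yield libraries 119 ± 13.3 TPM (SD, n = 3 each), without overlap, and the log2 difference was 1.37 ± 0.44. In LaMe both steps were wide, whereas in Yangambi and SP540 most of the difference lay between medium and high yield.

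XM_029262294.1 was the other abundant row among the 10 upward members of widest smallest step. Low, medium and high yield gave 86.7, 101 and 268 TPM in LaMe, 30.9, 51.4 and 66.5 TPM in Yangambi, and 99.0, 148 and 383 TPM in SP540. The classes overlapped, since the high-yield Yangambi library lay below the low-yield libraries of LaMe and SP540. Its log2 difference was 1.55 ± 0.43.

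In another pair of rows, LaMe stood below the other populations at every yield class. LOC105039829 (XM_029262929.1) was at 1.502, 3.90 and 9.08 TPM in low, medium and high yield of LaMe, against a range of 12.2 to 19.3 TPM in Yangambi and one of 12.7 to 18.8 TPM in SP540. XM_019847311.1 was at 6.67, 10.6 and 13.6 TPM in LaMe, against a range of 16.8 to 24.5 TPM in Yangambi and one of 16.5 to 22.4 TPM in SP540. In both rows the spread between populations was as wide as that between yield classes, so that high-yield and low-yield libraries overlapped.

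The remaining upward members of this group had moderate differences. LOC105060556 (XM_010944323.3) stood at 12.4, 14.2 and 16.5 TPM in low, medium and high yield of LaMe, at 8.30, 13.6 and 16.6 TPM in Yangambi, and at 7.61, 10.8 and 16.3 TPM in SP540. It thus reached almost the same level in the high-yield libraries of all populations, at 16.5 ± 0.158 TPM, against 9.42 ± 2.56 TPM in the low-yield libraries (SD, n = 3 each). XM_029262435.1 did the opposite and had its narrowest class at low yield, with 17.5 ± 2.06 TPM in the high-yield class and 11.8 ± 0.243 TPM in the low-yield class. LOC105036058 (XM_010911799.3) was at 16.7 ± 4.38 TPM in the high-yield class and 8.66 ± 3.39 TPM in the low-yield class. In all 3 rows the high-yield libraries lay above the low-yield ones without overlap, narrowly so in LOC105036058.

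**Figure D3:**
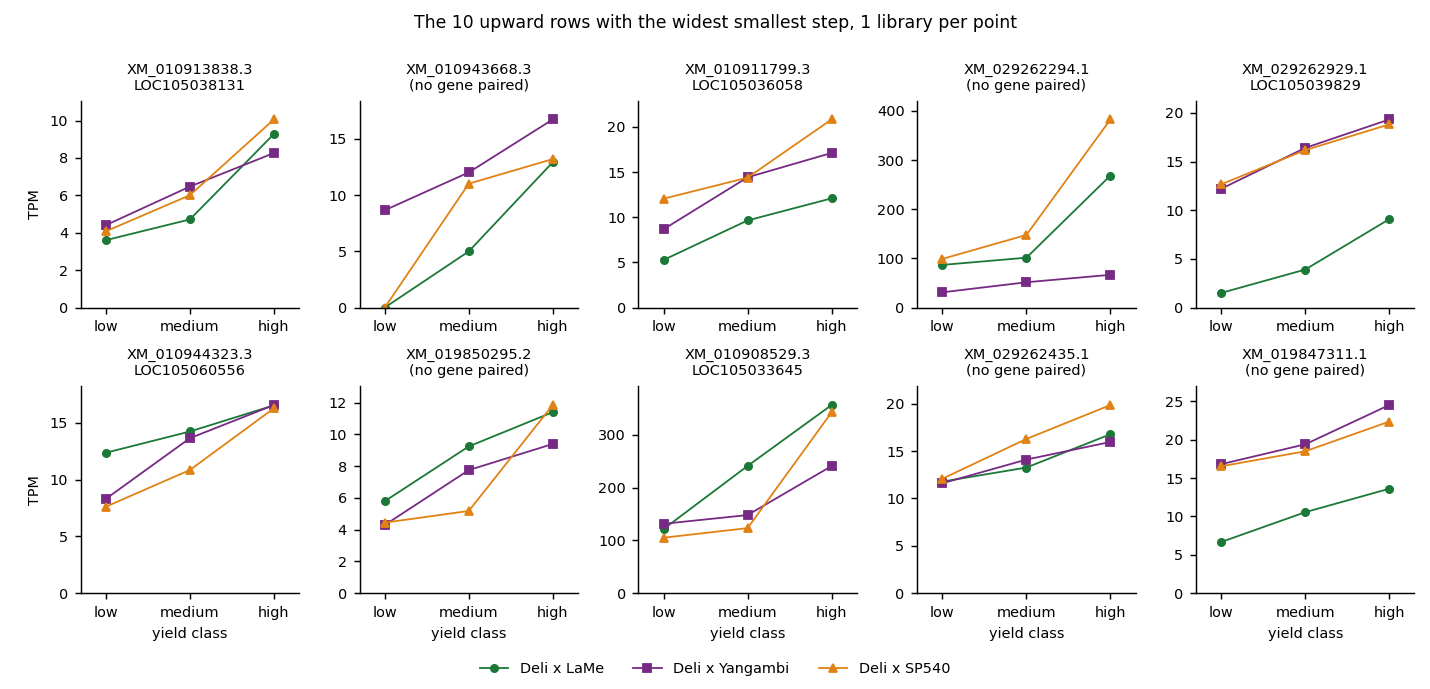
TPM by yield class for the 10 upward members with the widest smallest step, with 1 line per population and 1 library per point. LOC105038131 keeps the classes apart, XM_010943668.3 starts at 0 in LaMe and SP540, and XM_029262294.1 is spread by population.

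The most abundant upward members differed little. LOC105054145 (XM_010935587.3) stood at 282, 297 and 321 TPM in low, medium and high yield of LaMe, at 287, 331 and 345 TPM in Yangambi, and at 296, 299 and 318 TPM in SP540. Its high-yield libraries were 1.14 times its low-yield libraries. LOC105033250 (XM_010907972.1) was at 293 ± 32.3 TPM in the high-yield class and 260 ± 45.5 TPM in the low-yield class (SD, n = 3 each), which overlapped. LOC105058713 (XM_010941733.2) differed more, with 306 ± 73.8 TPM in the high-yield class and 183 ± 68.5 TPM in the low-yield class. Here the high-yield Yangambi library, at 222 TPM, lay below the low-yield SP540 library, at 227 TPM.

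Among the downward members, LOC105054837 (XM_029267528.1) had the widest smallest step, 0.30 on the log2 scale. Its TPM in low, medium and high yield was 8.56, 3.40 and 2.57 in LaMe, 15.5, 11.1 and 6.27 in Yangambi, and 17.3, 9.30 and 0 in SP540. It was listed at 0 in the high-yield SP540 library, and high-yield and low-yield libraries did not overlap. XM_019846133.2 stood at 6.23, 5.06 and 3.37 TPM in LaMe, at 7.64, 4.73 and 2.10 TPM in Yangambi, and at 9.07, 7.20 and 4.66 TPM in SP540. Its high-yield libraries averaged 3.38 ± 1.28 TPM and its low-yield libraries 7.65 ± 1.42 TPM (SD, n = 3 each), a log2 difference of -1.01 ± 0.41.

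The rows XM_010925372.3 of LOC105046707 and XM_010930258.3 of LOC105050299 both stood at less than 0.5 of their low-yield level in high yield. The first averaged 9.98 ± 3.36 TPM in the high-yield class and 21.0 ± 4.12 TPM in the low-yield class, and its log2 difference was -1.03 ± 0.21. The second averaged 6.09 ± 1.39 TPM in the high-yield class and 13.3 ± 2.82 TPM in the low-yield class, with a log2 difference of -1.01 that varied by an SD of 0.04 between populations. In LaMe both had most of their difference between low and medium yield, and XM_010930258.3 had most of it between medium and high yield in Yangambi and SP540. Both genes have further rows, and neither gene sum stepped. For LOC105050299 the sum in low, medium and high yield was 14.8, 15.2 and 15.5 TPM in LaMe. It was 23.2, 19.9 and 18.6 TPM in Yangambi, and 22.6, 22.2 and 15.4 TPM in SP540.

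A group of low rows had uneven levels among their high-yield libraries. LOC105039980 (XM_010916336.2) stood at 0.106 TPM in high-yield Yangambi, against 4.66 and 5.34 TPM in high-yield LaMe and SP540 and 13.3 ± 5.88 TPM in low-yield libraries. XM_010934642.3 was at 1.05 TPM in high-yield Yangambi and at 3.29 and 3.79 TPM in high-yield LaMe and SP540, against 7.39 ± 1.2 TPM in low-yield libraries. XM_029264251.1 was at 1.81, 1.49 and 4.25 TPM in high-yield LaMe, Yangambi and SP540. It averaged 2.52 ± 1.505 TPM in the high-yield class and 8.47 ± 1.96 TPM in the low-yield class. LOC105046720 (XM_010925398.3) kept all 3 classes apart, at 4.08 ± 1.80 TPM in high, 6.57 ± 0.282 TPM in medium and 8.83 ± 1.52 TPM in low yield.

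XM_010907889.2 had low-yield libraries that lay close together. Its low-yield libraries lay at 15.0, 15.3 and 15.3 TPM, its medium-yield libraries at 13.7, 12.9 and 12.9 TPM and its high-yield libraries at 12.6, 9.09 and 10.9 TPM in LaMe, Yangambi and SP540. The 3 classes did not overlap, and the log2 difference of high minus low yield was -0.46 ± 0.23.

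**Figure D4:**
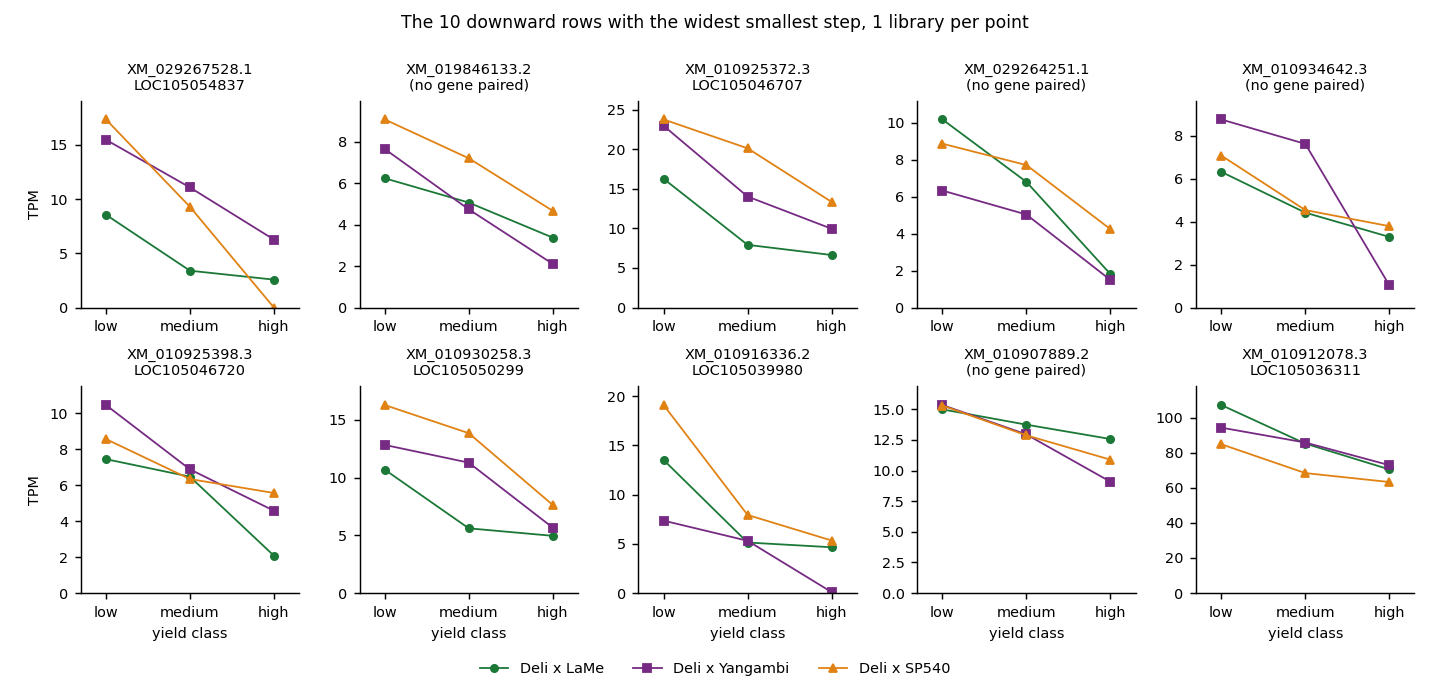
TPM by yield class for the 10 downward members with the widest smallest step, with 1 line per population and 1 library per point. XM_010907889.2 and the row of LOC105046720 keep the 3 classes apart, and the row of LOC105054837 is listed at 0 in high-yield SP540.

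The most abundant downward member, LOC105034097 (XM_010909124.2), was also among the wider ones. In low, medium and high yield it stood at 542, 484 and 279 TPM in LaMe, at 469, 434 and 337 TPM in Yangambi, and at 686, 510 and 330 TPM in SP540. High-yield libraries averaged 315 ± 31.9 TPM and low-yield libraries 565 ± 111 TPM (SD, n = 3 each), without overlap, and the log2 difference was -0.83 ± 0.31. LOC105036311 (XM_010912078.3) was at 68.9 ± 5.0 TPM in the high-yield class and 95.4 ± 11.2 TPM in the low-yield class, again without overlap. LOC105035949 (XM_010911668.2) differed least of the 3, at 88.5 ± 7.26 TPM in the high-yield class and 98.0 ± 4.95 TPM in the low-yield class, with overlap.

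The strict order can be met by values next to 0. In 5 members, 1 upward and 4 downward, at least 1 library was under 0.01 TPM. The extreme case, XM_029262364.1, stood at 36.4, 4.02 and 0.000104 TPM in low, medium and high yield of LaMe and at 46.2, 0.815 and 0.000542 TPM in SP540. In Yangambi its values were 2.57e-07, 8.85e-08 and 0 TPM, so it met the rule there on levels that amount to no transcript. In LOC105041621 (XM_019849633.2) the step from medium to high yield in LaMe rested on such values, with 4.07, 9.35e-06 and 0 TPM in low, medium and high yield. Both were named after their values were seen. At the lower limit on the mean, XM_010920709.3 at 5.52 TPM was the lowest upward member and XM_010907930.2 at 4.91 TPM stepped but lay just outside. Downward, XM_010934642.3 at 5.21 TPM was the lowest member and LOC105044773 (XM_010922780.3) at 4.97 TPM lay just outside. No stepping XM_ row reached 1000 TPM, and the highest members stood at 309 TPM upward and 452 TPM downward.

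A pair of genes held 1 upward and 1 downward row each. LOC105061091 has XM_010945045.3, with 10.05, 10.8 and 16.2 TPM in low, medium and high yield of LaMe, 10.9, 11.04 and 15.6 TPM in Yangambi, and 9.53, 11.5 and 14.2 TPM in SP540. Its other row, XM_010945046.3, stood at 5.83, 5.19 and 0 TPM in LaMe, at 8.22, 6.92 and 1.51 TPM in Yangambi, and at 7.99, 7.62 and 4.01 TPM in SP540. The share of the first row in the gene's TPM was 89.7 ± 11.1% in high-yield and 58.3 ± 4.55% in low-yield libraries (SD, n = 3 each). Its rise with yield within each population follows from the rule, since the gene's only 2 XM_ rows step in opposite directions. The sum of both rows did not step. It was 15.9, 15.9 and 16.2 TPM in low, medium and high yield of LaMe, 19.1, 18.0 and 17.1 TPM in Yangambi, and 17.5, 19.2 and 18.2 TPM in SP540.

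LOC105034383 showed the same pattern. XM_019846984.2 stood at 9.62, 16.0 and 17.8 TPM in low, medium and high yield of LaMe, at 8.60, 9.53 and 14.2 TPM in Yangambi, and at 15.3, 15.8 and 20.5 TPM in SP540. XM_010909523.3 stood at 27.4, 24.7 and 17.6 TPM in LaMe, at 17.6, 16.9 and 12.3 TPM in Yangambi, and at 24.4, 19.9 and 12.5 TPM in SP540. The upward row made up 55.4 ± 6.04% of the gene in high-yield and 32.4 ± 6.24% in low-yield libraries, without overlap. Here too the rule fixes the rise of the share within each population. The sum stood at 35.4, 26.5 and 33.0 TPM in high-yield and 37.0, 26.2 and 39.7 TPM in low-yield libraries of LaMe, Yangambi and SP540. The quantifier named in the submitters' notes, kallisto, assigns reads common to several transcripts by estimation, and the part of this in the shares was not tested. The 2 genes were found among 1147 genes with 2 or more rows within the limits, and no test of transcript shares was run.

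**Figure D5:**
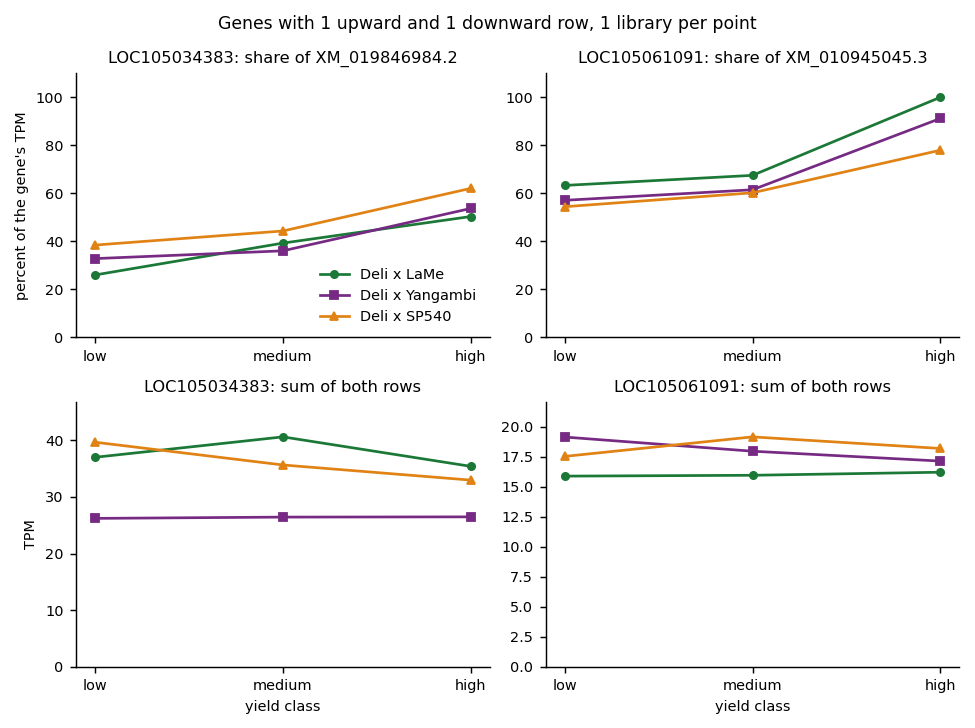
Upper panels give the percent of the gene's TPM held by the upward row, and lower panels the summed TPM of both rows, by yield class with 1 line per population. The share of XM_010945045.3 averages 89.7% at high and 58.3% at low yield and that of XM_019846984.2 55.4% and 32.4%, while the sums show no common order. The rule fixes the rise of each share within a population.

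Other members were also 1 of several transcripts of a gene. Of the 101 paired members, 32 (31.7%) belonged to a gene with further XM_ rows in the table, against 36.4% of all paired rows within the limits. Among the 28 such genes with a single member row, the gene sum stepped in 1, LOC105032309, whose member row (XM_010906719.3) held 96.1% of the sum. This gene was picked out once the sums were known. The sum differed between high and low yield in the member's direction in all 3 populations for 16 of the 28, in 2 for 10 and in 1 for 2. Each sum includes the member row, which the rule chose for that direction, so this agreement is partly built in. In 12 of the 28 the member held under 50% of its gene, and 0 of these sums stepped. XM_029267528.1 of LOC105054837, the downward member with the widest smallest step, held 4.44% of a gene sum of 185 TPM, and that sum was 146, 196 and 170 TPM in high-yield and 182, 269 and 158 TPM in low-yield libraries of LaMe, Yangambi and SP540. Other members of widest smallest step were parts of a gene as well. The rows of LOC105060556, LOC105039980 and LOC105046720 held 17.4%, 23.5% and 29.4% of their gene sums. Those of LOC105039829, LOC105050299, LOC105046707 and LOC105036058 held 50.3%, 53.1%, 72.1% and 82.0%. None of these sums stepped. Among other named members, the rows of LOC105041621 and LOC105033250 held 7.53% and 92.3% of their gene sums, which did not step either. The 69 remaining genes had a single XM_ row, so that row and gene are the same measurement.

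Differences between populations were not part of the rule. The joint limma test of population, with yield class in the fit, called 2 of the 139 members (1.44%), against 0.327% of the 30576 rows tested. XM_010914694.3 was highest in LaMe, with 46.6, 47.5 and 90.5 TPM in low, medium and high yield, against 29.2, 30.1 and 42.2 TPM in SP540 and 11.9, 17.6 and 25.9 TPM in Yangambi (limma adjusted p = 0.0318). It was named after its values were seen. XM_029262294.1, whose values are given above, was lowest in Yangambi (limma adjusted p = 0.0441). The rule narrows the spread that this fit leaves over, because members follow yield alike in each population. At an unadjusted p under 0.05 stood 37 members (26.6%) against 12.7% of all rows, and without yield class in the fit 19 members (13.7%) against 14.1%, with 0 members called. Both calls were also lost without any 1 of the 9 libraries.

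Scaling moved the split between directions. The median ratio of each library to the mean library was 0.975, 0.997 and 1.02 in low, medium and high yield of LaMe, 1.001, 1.02 and 1.02 in Yangambi, and 1.02, 1.11 and 1.04 in SP540. In LaMe that ratio itself stepped upward with yield, and the medium-yield SP540 library stood highest, at 0.15 on the log2 scale. With TPM divided by this ratio, 72 rows stepped upward and 77 downward, so that upward rows made up 48.3% instead of 61.9%. Of the 86 upward members 47 remained upward, and of the 53 downward members 44 remained downward. The 10 upward and the 10 downward members of widest smallest step all kept their order. The upward rows of LOC105061091 and LOC105034383 no longer stepped, so neither gene then held a row in each direction. Those named for LOC105054145, LOC105033250, LOC105035949, LOC105032309, LOC105047496 and LOC105061092 also lost their order, as did XM_010914694.3. The other named members kept it. The part of library composition in the larger number of upward members was not tested.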

How the data were processed

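Leaf RNA of oil palm was extracted with a Norgen kit and sequenced from TruSeq mRNA libraries, per the labels' protocols. The values are TPM made by the authors; the submitters' processing notes name fastp, kallisto and DESeq2, without versions, roles or order, and neither transcript set nor build is given in the sources used here. Each deposited TPM column sums to 1000000 and keeps no depth, so no counting interval can be given. Yield class and population came from the labels. Rows were paired with RefSeq genes (assembly EG11, used for names and neighbours only) by accession without version, which paired 31716 rows (61.6%).

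Stepping rows were counted on TPM in Python 3.11.15 (pandas 2.3.3) for all 216 arrangements of yield labels within populations. Exact p-values are the share of arrangements with a count at least as high. Of the 15594 rows within the limits 90 had tied values in a population. Limma 3.58.1 in R 4.3.3 (statmod 1.5.0; trended, robust) was fitted to log2(TPM + 1) of rows that reached 1 TPM in 3 or more libraries, with population and yield class as terms, since a planned count test does not suit TPM. Both scripts were tested on simulated data. The members, lists and tests were chosen with earlier results of these data known. Named members are the 10 of widest smallest step and the 3 of highest mean in each direction, and those of genes with 2 member rows; rows at the limits on the mean are named too, and others are marked as named after their values were seen. Lists by product description were planned and not used, because no description was at hand. Alternatives changed the limits on the mean, the row type, the scaling, the step size, the pseudocount, the filter, the terms of the fit and the libraries included.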

Additional observations from a re-analysis of the deposited data

How the results depend on the processing

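Ratios here are the number of stepping rows over its mean across label arrangements, which stays comparable when a library is left out. The upward ratio of 1.2 was 1.01 with median-ratio scaling (72 rows) and 0.815 with each step at least 25% of the lower value (1 row). It was 0.855 without LaMe, 1.75 without Yangambi and 1.34 without SP540. With single libraries left out it ranged from 0.914, without the high-yield LaMe library, to 1.92, without the low-yield Yangambi library. That value was the 1 alternative past the threshold (414 rows, exact permutation p = 0.0417). The downward ratio of 0.738 was 1.08 with median-ratio scaling, 1.1 and 1.63 with steps of at least 10% and 25%, 1.26 without Yangambi, and 0.511 (without high-yield SP540) to 1.5 (without low-yield Yangambi) with single libraries left out. For both directions together, 0.968 became 1.03 with a minimum of 1 TPM, 1.01 with rows of a gene summed, 1.02 with all accessions, 1.05 with scaling, 1.23 and 1.22 with the 2 step sizes, and 1.5 and 1.03 without Yangambi or SP540. It was above 1 without the low-yield, medium-yield or high-yield library of Yangambi or of SP540, and ranged from 0.749 (without high-yield LaMe) to 1.71 (without low-yield Yangambi) with single libraries left out. The ratio for rows of 1 shared order, 0.773, was 1.02 and 1.09 with the 2 step sizes, 1.06 without Yangambi and 0.772 to 1.09 with single libraries left out. The share stepping on in SP540 came to 17.1% with scaling, 11% and 11.5% with the 2 step sizes, each above the mean of the label orders in that setting; for LaMe and Yangambi the side of the mean was kept in all 9 settings tried. The cause was not tested.

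Members called between populations numbered 1 with a pseudocount of 0.1, 0 with no filter, 0 without yield class in the fit and 0 without any single library. Rows called for high against low yield ranged from 0 to 1 with single libraries left out (1 without low-yield Yangambi) and were 0 in the other settings. Libraries pair by population, and stepping rows were counted and labels arranged within populations. Population was a term in every fit except the alternative that left it out. The counts of classes lying apart compared libraries across populations. Depth is unknown, so values next to 0 have no counting limit.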

Other observations

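The order shared by the most rows was not one of yield. It was reached with low < medium < high in LaMe, medium < high < low in Yangambi and low < high < medium in SP540, an arrangement that 236 rows followed. Single breaks of the yield order were common, since 1207 rows (7.74%) kept 5 of the 6 upward steps and 743 (4.76%) kept 5 of the 6 downward steps.

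Of 10640 genes holding a row within the limits, 99 held a member. Of 4564 pairs of adjacent protein-coding genes that both hold a row within the limits, 2 pairs held members on both sides. Their genes, other than LOC105061091, were named after their values were seen. LOC105047495 (XM_010926433.3) and LOC105047496 (XM_010926434.2) are neighbours and both stepped upward. The first stood at 15.6, 19.1 and 21.7 TPM in low, medium and high yield of LaMe, 12.0, 15.0 and 24.2 TPM in Yangambi and 16.6, 23.2 and 25.2 TPM in SP540. The second stood at 95.4, 102 and 112 TPM in LaMe, 65.8, 119 and 123 TPM in Yangambi and 107, 115 and 134 TPM in SP540. LOC105061091, the gene with an upward and a downward row, lies next to LOC105061092 (XM_010945048.3), which stood at 33.5, 56.2 and 68.2 TPM in LaMe, 50.02, 54.6 and 82.5 TPM in Yangambi and 64.8, 70.3 and 90.8 TPM in SP540. XM_010945048.3 held 68.3% of its gene sum. That sum did not step, with 98.7, 79.2 and 130 TPM in low, medium and high yield of Yangambi. Neither the number of such pairs nor a sharing of reads between these neighbours was tested.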
